A study of Mus musculus with 2 samples.

Results

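Notch signalling runs between touching cells. A ligand of the Delta or Jagged family on one cell binds a Notch receptor on its neighbour, gamma-secretase then frees the receptor's intracellular domain, and this domain joins the DNA-binding protein Rbpj to switch on target genes such as those of the Hes and Hey repressors. In the embryonic limb the pathway is known for parts in the limb margin, in cartilage formation, in blood vessels and in the upkeep of muscle precursors.

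The genes described are 3 Notch receptors (Notch1, Notch2 and Notch3), 3 ligands (Jag1, Jag2 and Dll1), the receptor-modifying enzyme Lfng and 3 target genes (Hes1, Hey1 and Hey2). They were chosen by name as rows of the authors' deposited comparison of distal with proximal organoid areas, and all 10 were present among its 13916 protein-coding genes. The cells were limb mesenchymal cells from mouse embryos of the Slc:ICR strain, grown as organoids for 48 h in medium with Fgf8b and Wnt3a, and 5 organoids that came from 4 surrogate cultures were frozen on day 2. Photo-isolation chemistry, a method that copies RNA inside a section with light-sensitive primers and then releases the copies from lit areas, was applied to 10 µm sections fixed with 4% PFA, with 365 nm light for 3 min through a 20x objective. The distal group and the proximal group each held 5 barcoded regions pooled into 1 library of the batch PIC26. Both groups shared strain, medium, day and processing and differed in the lit side and in the library, so side and library cannot be told apart. Which region came from which organoid is not given in the sources used here, so p-values measure the spread between regions, which may be technical.

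Counts per region were worked back from the deposited means and log2 changes for 8 of the 10 genes (all but Notch2 and Hes1), as described with the processing. Regions are numbered here by depth, with 1 the deepest of its side, and not by the labels' numbers. The size factors, which measure relative depth, were 0.832, 0.698, 0.559, 0.510 and 0.329 in distal regions 1 to 5 and 2.42, 2.21, 1.96, 1.57 and 1.502 in proximal regions 1 to 5. The listed genes had from 46991 to 118978 counts in a distal region and from 214774 to 345649 in a proximal region. A gene at equal level on both sides would therefore have 23.3% of its counts in distal, and 3 counts, taken as the floor of a side, correspond to a level of 1.02 normalized counts in distal and 0.311 in proximal.

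None of the 10 genes passed the deposited test. With an adjusted p under 0.05 as the call, the authors' deposited table called 0 of the 10 Notch genes, beside 136 of all 13916 genes (0.977%). The distal side was the higher one for 55 of those calls (0.395%) and the proximal side for 81 (0.582%). At an unadjusted p under 0.05 the count was 2 of 10, beside 6.07% of all genes. One of these was Hey2, with the higher level in distal (2.56% of all genes), and the other was Dll1, with the higher level in proximal (3.51% of all genes). Of the 10 log2 changes (distal over proximal), 5 were positive and 5 negative, with a median of -0.24 beside 0.07 over all genes. For the 4 Notch genes with a deposited mean of at least 8 normalized counts (Notch2, Hes1, Notch3 and Jag1), the median was 0.09 beside -0.003 for the 4420 genes at such means. The regions of the 2 sides overlapped for all 8 Notch genes with counts per region. Of these, Dll1, Hey1 and Hey2 had a mean from 1 to 2.6, where the sides did not overlap for 61 of 1961 genes (3.11%). Notch1, Jag2 and Lfng had regions at 0 on both sides, so overlap says little of them. The share without overlap was not counted at the means of Notch3 and Jag1. Since a region holds many cells, fewer cells of a type and less RNA per cell cannot be told apart in any of these values. Log2 changes given below without another source are those of the authors' deposited table.

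**Figure D1:**
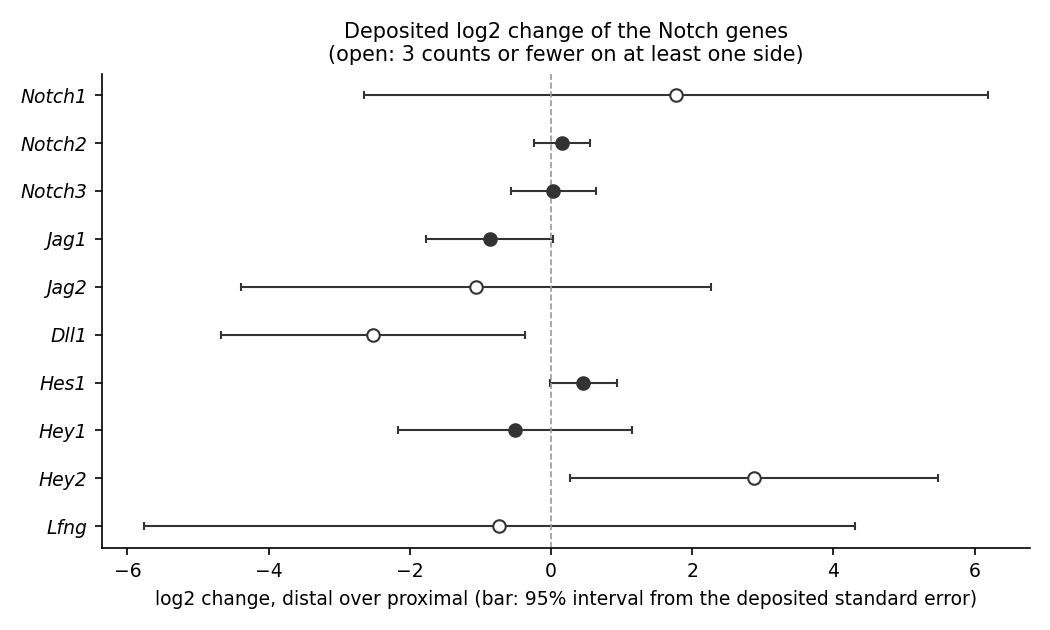
Deposited log2 change, distal over proximal (horizontal axis), of the 10 Notch genes, with bars for 95% intervals from the deposited standard error. Open points mark genes with 3 counts or fewer on at least one side; the intervals of Dll1 and Hey2 leave out 0, and neither passed adjustment.

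Promoter windows from RefSeq (build GRCm38.p6, from 250 bases before to 50 bases after the start) were matched by symbol for 8 of the 10 genes, in 9 windows. Hes1 and Hey1 had no matched window, so their promoters were not searched. They were searched on both strands for TGGGAA, the core of the sequence that Rbpj binds, and for CACNAG, the N-box known from Hes proteins. No match of one motif overlapped a match of the other in the windows of these genes. Of the 8 searched genes, TGGGAA was present in the windows of 2, Lfng and Hey2, each of which held 2 copies. Of 32851 RefSeq promoter windows 25.6% held at least 1 copy and 3.79% at least 2. CACNAG was present for 5 genes (Notch1, Notch2, Notch3, Lfng and Dll1), beside 42.5% of all windows. The windows of Lfng and Hey2 are shown, up to 20 bases past the start, because they are the ones among the searched genes that hold the Rbpj core. Each is written 5′ to 3′ on the gene's strand, with each core in capitals (TTCCCA where it lies on the other strand). The first sequence is chr5:140607091-140607360 on the plus strand and the second is chr10:30842764-30843033 on the minus strand.
Lfng: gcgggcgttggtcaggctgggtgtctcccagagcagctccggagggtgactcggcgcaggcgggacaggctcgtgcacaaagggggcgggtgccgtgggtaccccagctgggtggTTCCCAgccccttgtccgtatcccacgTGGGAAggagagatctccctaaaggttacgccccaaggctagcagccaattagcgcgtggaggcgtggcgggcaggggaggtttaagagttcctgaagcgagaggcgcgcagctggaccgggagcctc
Hey2: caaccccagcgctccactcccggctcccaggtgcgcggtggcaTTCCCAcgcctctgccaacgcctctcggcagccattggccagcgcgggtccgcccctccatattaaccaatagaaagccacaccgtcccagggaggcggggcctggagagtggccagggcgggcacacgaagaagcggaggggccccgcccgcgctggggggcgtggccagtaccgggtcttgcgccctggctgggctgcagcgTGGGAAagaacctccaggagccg
In the Lfng window the cores lie at -135 to -130 on the opposite strand and at -108 to -103 on the gene's strand, counted from the RefSeq start. In the Hey2 window they lie at -207 to -202 on the opposite strand and at -3 to 3 on the gene's strand. The second Hey2 core thus spans the RefSeq start. In GENCODE M21 both genes start further upstream, Lfng at 140607320 and Hey2 at 30842801. By that start the second Hey2 core lies inside the gene. A match describes letters and shows no binding, and the low counts of both genes (6 and 9 in all regions) limit what can be said of their levels.

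Per length, the 10 genes covered a wide span of levels. The deposited mean divided by the kilobases of annotated exon was 17.6 for Hes1, 6.02 for Notch2, 2.28 for Notch3, 1.48 for Jag1, 0.652 for Hey1, 0.408 for Dll1, 0.282 for Hey2, 0.107 for Lfng, 0.0483 for Jag2 and 0.0250 for Notch1. Over the 10 regions the SD of the value per kilobase was 0.815 for Notch3 and 0.819 for Jag1, and the gap of 0.801 between them was smaller than that. Jag1 stood 0.827 above Hey1, about as much as its own SD. From Hey1 down to Notch1 every gap to the next gene was smaller than the larger SD of the pair, so neighbours among those 6 genes are not ordered beyond their spread. The ends were, since Hey1 (SD 0.315) and Notch1 (SD 0.0673) stood further apart than either SD. These SDs describe single regions and are not errors of the means. Hes1 and Notch2 had no counts per region and so no spread. Whether reads were counted along whole transcripts or near their ends is not given in the sources used here, and a level per length would differ between these cases.

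The receptors had no difference between the sides that passed the test. Notch2, the receptor with the highest level here (chromosome 3, 98013527 to 98150361 on the plus strand of GRCm38, GENCODE M21, as for all genes below), had a deposited mean of 64.9. Its computed levels were 68.4 normalized counts in distal and 61.3 in proximal, from about 200.2 and 592.0 counts. In the authors' deposited table its log2 change was 0.16 (SE 0.20, 95% interval from -0.24 to 0.55, adjusted p = 0.991). Of its counts, 25.3% were distal (exact binomial interval, as for all shares, from 22.3% to 28.4%), an interval that holds the depth share.

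Notch3, a receptor best known from mural cells of blood vessels (chromosome 17, 32120820 to 32166852, minus strand), had 18, 10, 9, 5 and 11 counts in distal regions 1 to 5 and 48, 48, 24, 25 and 29 in proximal regions 1 to 5. Divided by the size factors, these were 21.6, 14.3, 16.1, 9.80 and 33.5 normalized counts in distal and 19.9, 21.7, 12.3, 15.96 and 19.3 in proximal. The distal regions held both the highest and the lowest value, and the proximal values lay between them. The means were 19.1 ± 9.10 (SD, n = 5 regions) and 17.8 ± 3.73 (SD, n = 5 regions), and 23.3% of the 227 counts were distal (18.01% to 29.4%), the same share as the depth. The authors' deposited table gave a log2 change of 0.03 (SE 0.31, 95% interval from -0.57 to 0.63, adjusted p = 0.9998). Its sign turned when single regions were left out, with values from -0.17 without distal region 5 to 0.18 without distal region 4. Of the 5 listed mural cell markers, 4 were in the table and 0 were called. Pdgfrb had the highest mean (20.5) and a log2 change of 0.03, and Cspg4 had a mean of 8.73 and 0.21. The other markers were sparse, with 4 distal and 6 proximal counts for Rgs5 and 0 distal counts and 1 proximal count for Abcc9. The part of mural cells in the Notch3 counts was not tested.

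Notch1 (chromosome 2, 26457903 to 26516663, minus strand) was barely detected, with 1 count in distal region 5 and 1 count in proximal region 3. Both sides stood under the floor of 3 counts, so no direction or fold is given, and a difference was not detectable at this depth. Notch4, the remaining mouse receptor, was equally sparse with 1 distal count and 2 proximal counts. Of the 4 mouse receptors, Notch2 and Notch3 therefore carried nearly all receptor counts. The annotation places noncoding genes on the opposite strand within Notch1, Notch3 and Dll1, and use of strand in counting is not given in the sources used here, so reads of these partners cannot be told apart from the genes' own.

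**Figure D2:**
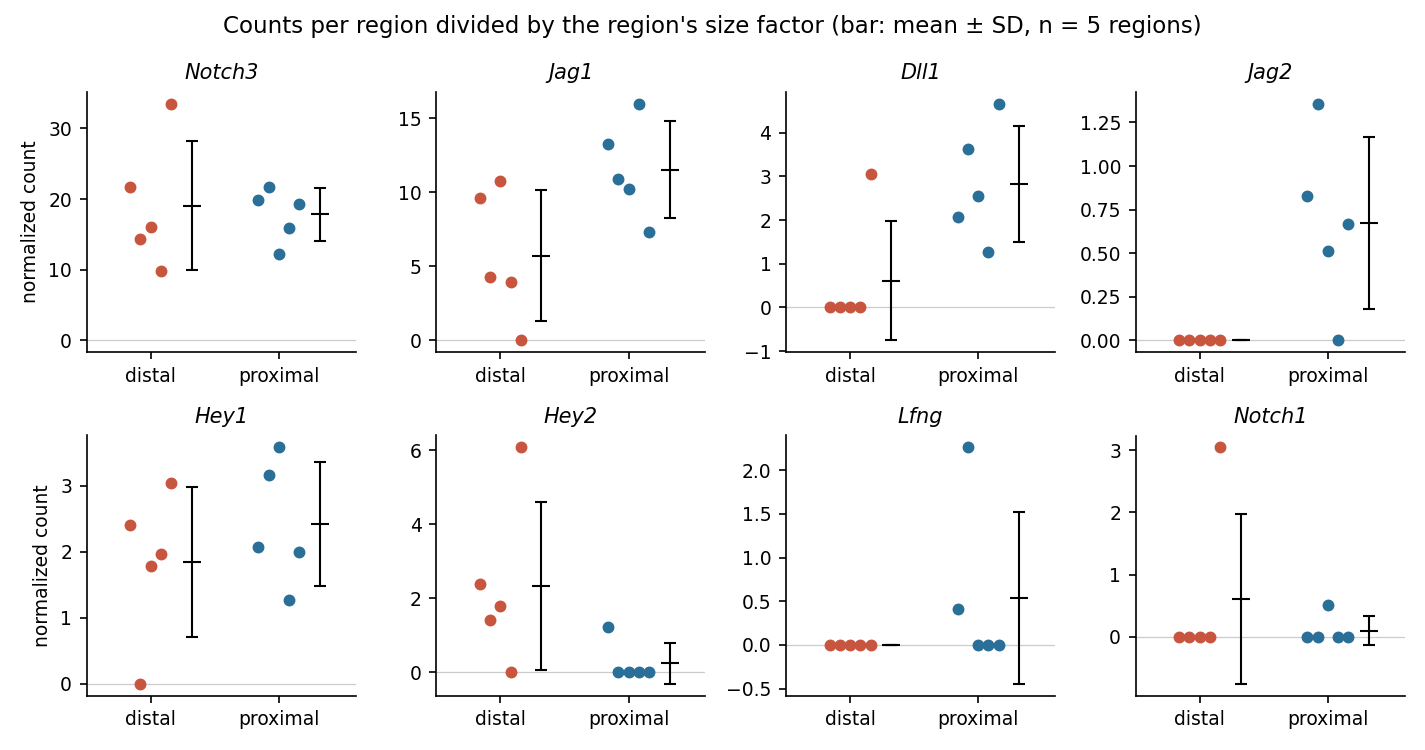
Normalized counts (vertical axis, count divided by the region's size factor, own scale in each panel) in each of the 5 distal and 5 proximal regions for the 8 Notch genes with counts per region; the bar is the mean ± SD over 5 regions. The sides overlap for all 8 genes, and the SD bars of sparse genes reach below 0, where no count can lie.

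Among the ligands, Jag1 and Dll1 had fewer distal counts than their depth would give, and neither passed adjustment. Jag1 (chromosome 2, 137081456 to 137116644, minus strand), the ligand with the highest level here, had 8, 3, 6, 2 and 0 counts in distal regions 1 to 5 and 32, 24, 20, 25 and 11 in proximal regions 1 to 5. In normalized counts the distal values were 9.61, 4.30, 10.7, 3.92 and 0, and the proximal values 13.2, 10.9, 10.2, 15.96 and 7.32. All proximal regions had counts, the 2 highest distal regions reached into the proximal range, and the other distal regions lay below it. The means were 5.71 ± 4.43 in distal and 11.5 ± 3.25 in proximal (SD, n = 5 regions each). The log2 change in the authors' deposited table was -0.87 (SE 0.46, p = 0.0582, adjusted p = 0.980). Of the 131 counts, 14.5% were distal (8.96% to 21.7%), and per depth the proximal side had 1.79 times the distal count (exact interval from 1.09 to 3.08). These count intervals cover counting error only, and the deposited standard error, which also holds the spread between regions, does not place the difference past the threshold.

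Dll1 (chromosome 17, 15367354 to 15376872, minus strand), a Delta ligand known from the dividing precursors of somites and muscle, had its counts almost wholly on the proximal side. The proximal regions 1 to 5 held 5, 8, 5, 2 and 7 counts and the distal regions held 0, 0, 0, 0 and 1. The normalized counts were 2.07, 3.62, 2.56, 1.28 and 4.66 in proximal (mean 2.84 ± 1.33, SD, n = 5 regions). The single distal count fell in the shallowest region, where it equals 3.04 normalized counts, so the ranges overlap although 4 of 5 distal regions were at 0. Of the 28 counts, 3.57% were distal (0.0904% to 18.3%), and per depth the proximal count was 8.19 times the distal one (exact interval from 1.35 to 335). This ratio rests on 1 distal count, under the floor of 3 counts, so its interval rather than its value is to be read. Its log2 change was -2.52 (SE 1.10, p = 0.0217, adjusted p = 0.620 in the authors' deposited table). Without distal region 5 the refitted log2 change was -3.29. That refit had 0 distal counts left, so its size is not fixed by the data. Over the 10 refits that each left out 1 region the unadjusted p ran from 0.00631 to 0.0637, with 8 of 10 under 0.05. The smallest p came from the refit with 0 distal counts and is no separate support for a difference. The next smallest was 0.0159, without proximal region 4.

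Muscle markers were higher on the side where Dll1 had most of its counts. All 9 listed genes of muscle and its precursors were in the table, and 4 were called in the authors' deposited table (Myog, Actc1, Myl1 and Tnnt1, all higher in proximal). The summed level of the 9 was 11.1 normalized counts in distal and 107.6 in proximal, mostly from Actc1 (8.27 and 71.5). For the 5 with counts per region (Pax3, Pax7, Myf5, Myod1 and Des), the proximal regions 1 to 5 had summed normalized counts of 19.4, 6.79, 4.601, 4.47 and 7.32, and the distal regions had 1 count in all, in region 2. Proximal region 1 was highest for the muscle genes and region 5 for Dll1, and the distal region with the Dll1 count had 0 counts of those 5 muscle genes. Ngfr, the neural crest marker with the highest mean, was not called and had a log2 change of -3.49 (SE 1.11, adjusted p = 0.133 in the authors' deposited table). The part of muscle or neural crest cells in the values of Dll1 and Jag1 was not tested.

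Jag2 (chromosome 12, 112907819 to 112929776, minus strand), the other Jagged ligand, had 2, 3, 1, 0 and 1 counts in proximal regions 1 to 5 and 0 in every distal region. A share of 0 of 7 counts allows a distal share of up to 41.0%, which holds the depth share. The proximal mean of 0.672 normalized counts lies under the distal floor of 1.02, so no fold is given and a difference was not detectable. The authors' deposited table gave a log2 change of -1.06 (SE 1.70, adjusted p = 0.991). The refitted value was -0.64 without proximal region 2, and pooled counts with a pseudocount of 0.5 gave -2.19, so the size of this value is not fixed by the data.

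Lfng, lunatic fringe, adds sugars to Notch receptors in the Golgi and so changes which ligands they answer to (chromosome 5, 140607320 to 140615545, plus strand). It had 1 and 5 counts in proximal regions 1 and 2 and 0 in the other 8 regions. One region thus held 5 of its 6 counts, and the sign of the refitted log2 change turned to 0.99 without proximal region 2, from the deposited -0.73 (SE 2.57; adjusted p = 0.991 in the authors' deposited table). The distal share of 0 of 6 counts allows up to 45.9%, so no difference between the sides was detectable for Lfng. Pooled counts with a pseudocount of 0.5 gave a log2 ratio of -1.98.

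None of the 3 target genes passed the test, and their deposited log2 changes differed in sign. Hes1, a repressor that is the most widely used readout of Notch activity and also answers to other signals, had the highest level per length of the 10 genes (chromosome 16, 30064384 to 30067796, plus strand). Its computed levels were 41.6 normalized counts in distal and 30.2 in proximal, from about 121.7 and 291.9 counts, and 29.4% of its counts were distal (25.1% to 34.1%). In the authors' deposited table the log2 change was 0.46 (SE 0.25, 95% interval from -0.02 to 0.94, p = 0.0611, adjusted p = 0.991). The share interval starts near the depth share of 23.3% and leaves out the error of the computed counts, which reached 5.97% in genes where it could be checked. The deposited interval, which includes the spread between regions, holds 0.

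Hey1 (chromosome 3, 8663359 to 8667256, minus strand), a repressor related to Hes1, had 2, 0, 1, 1 and 1 counts in distal regions 1 to 5 and 5, 7, 7, 2 and 3 in proximal regions 1 to 5. The normalized means were 1.84 ± 1.14 in distal and 2.42 ± 0.937 in proximal (SD, n = 5 regions each), and the regions of the sides overlapped widely. In the authors' deposited table its log2 change was -0.51 (SE 0.85, 95% interval from -2.17 to 1.15, adjusted p = 0.991). Refits ran from -0.74 without distal region 1 to -0.13 without distal region 2, so single regions set its size. The 17.2% of its 29 counts that were distal (5.85% to 35.8%) do not set it apart from the depth share.

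Hey2 (chromosome 10, 30832359 to 30842801, minus strand), known from arteries and heart muscle, was the one gene of the 10 with more distal than proximal counts despite the shallower distal library. It had 2, 1, 1, 0 and 2 counts in distal regions 1 to 5, and 3 counts in proximal region 1 with 0 in the other proximal regions. In normalized counts the distal values were 2.403, 1.43, 1.79, 0 and 6.09, and proximal region 1 had 1.24. Counts were present in 4 of 5 distal regions and 1 of 5 proximal regions, and the distal region at 0 makes the sides overlap. Per depth the distal count was 6.59 times the proximal one (exact interval from 1.41 to 40.7), and 66.7% of 9 counts were distal (29.9% to 92.5%). The proximal side, with its 3 counts in 1 region, stood at the floor. The fitted log2 change was 2.88 (SE 1.33, p = 0.0304, adjusted p = 0.737 in the authors' deposited table). Refits that each left out 1 region gave 2.34 without distal region 5 and 4.39 without proximal region 1. Their unadjusted p ran from 0.00297 to 0.104, with 5 of 10 under 0.05. The refit without proximal region 1 had 0 proximal counts left, so its size is not fixed by the data. It also gave the smallest p, which is therefore no separate support for a difference. The next smallest was 0.0188, without distal region 4.

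Apart from Erg, endothelial markers were near 0 on both sides. Of the 10 listed, 6 were in the table (Tek, Tie1, Egfl7 and Cldn5 had no row) and 0 were called, with summed levels of 26.7 normalized counts in distal and 33.6 in proximal, mostly from Erg (mean 28.5). Without Erg, the other 5 had 7 distal and 10 proximal counts. Their normalized counts summed over the 5 genes ran from 0 to 5.73 in the distal regions and from 0 to 2.71 in the proximal regions. Summed levels computed from the deposited means and log2 changes were 2.47 in distal and 0.790 in proximal. Such computed levels need not follow the counts of sparse genes, so their ratio is not to be read. The part of endothelial cells in the Hey2 counts was not tested.

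**Figure D3:**
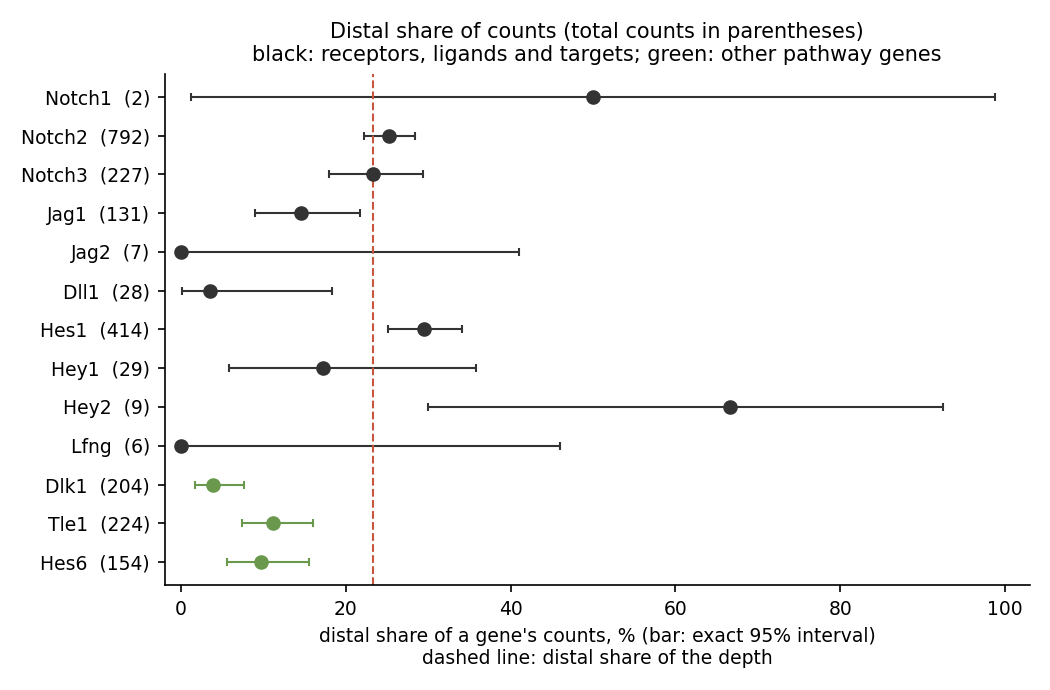
Distal share of each gene's counts in percent (horizontal axis) with its exact 95% binomial interval; total counts stand in parentheses and the dashed line is the distal share of the depth, 23.3%. The intervals of Jag1 and Dll1 lie below the line, that of Hey2 lies above it, that of Hes1 starts close above it without the error of its computed counts, and Notch3 sits on it; green points are Dlk1, Tle1 and Hes6.

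Other parts of the pathway were read from a list of 55 further genes, of which 52 were in the table and Hes2, Hes3 and Nrarp had no row. Of the 52, the authors' deposited table called 1 (1.92%, beside 0.977% of all genes), higher in proximal. At an unadjusted p under 0.05 there were 8 (15.4%, beside 6.07%), of which 6 were higher on the proximal side and 2 on the distal side. The median log2 change was -0.13 with 23 positive and 29 negative values. For the 22 of them whose deposited mean reached 8 it was -0.07, beside -0.003 for all genes at such means. Signs of sparse genes need not follow the counts. Hes5 and Dtx1, each with 0 distal counts and 1 proximal count, had a log2 change of 1.19. Dlk2 and Aph1c, each with 0 distal and 2 proximal counts, had 0.60. The numbers of positive and negative values are therefore no count of directions.

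The called gene was Dlk1, a membrane protein of the Delta-like family without the domain that activates Notch, known from undifferentiated fat and muscle precursors. It had 2, 0, 2, 2 and 2 counts in distal regions 1 to 5 and 67, 33, 43, 28 and 25 in proximal regions 1 to 5. The normalized means were 3.20 ± 2.23 and 19.8 ± 5.12 (SD, n = 5 regions each), and every proximal region lay above every distal region. The share of genes without overlap was not counted at this mean, and Dlk1 is named for its call. Its lack of overlap is therefore no separate support for a difference. The log2 change was -2.85 (SE 0.57, adjusted p = 0.000187 in the authors' deposited table), and per depth the proximal count was 7.43 times the distal one (exact interval from 3.70 to 17.5). The other ligands of that list were near the floor, with 0 distal and 4 proximal counts for Dll3 and 1 distal and 0 proximal counts for Dll4. The summed muscle level, mostly from Actc1, was also higher in proximal, 107.6 against 11.1. The part of muscle cells in the Dlk1 difference was not tested.

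Of the enzymes that act on receptors before ligand binding, 0 of 4 sugar transferases and 0 of 10 cleavage genes were called. Pofut1, which adds the fucose that fringe enzymes extend, had 2 distal and 37 proximal counts with no overlap between the sides. Such a lack of overlap held for 3.11% of genes with a mean from 1 to 2.6. The authors' deposited table gave Pofut1 a log2 change of -2.38 (SE 1.03, p = 0.0212, adjusted p = 0.613). Poglut1, the glucose transferase with the highest mean of its group (11.02), had a log2 change of 0.35. Furin, the protease that cuts the receptor on its way to the surface, had the smallest p and the highest mean of the cleavage genes (43.0) and a log2 change of -0.47 (SE 0.22, p = 0.0332, adjusted p = 0.772 in the authors' deposited table). None of 4 genes for ligand endocytosis was called, and Mib1, the ubiquitin ligase that ligands need in order to signal, had a log2 change of -0.03 (SE 0.28). Neurl1b, the gene with the smallest p of those 4, had 2 distal and 12 proximal counts.

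In the nuclear complex and its co-repressors 0 of 17 genes were called, and 3 had an unadjusted p under 0.05 in different directions. Tle1, a Groucho co-repressor that Hes proteins recruit, had 10, 4, 3, 4 and 4 counts in distal regions 1 to 5 and 47, 32, 45, 32 and 43 in proximal regions 1 to 5. Its normalized means were 8.62 ± 3.31 and 21.2 ± 5.18 (SD, n = 5 regions each), with every proximal region above every distal one. As for Dlk1, the share of genes without overlap was not counted at this mean. Tle1 is named for the smallest p of its group, so the lack of overlap is no separate support. The authors' deposited table gave a log2 change of -1.30 (SE 0.38, adjusted p = 0.0566), which missed the threshold of 0.05. Another Groucho gene, Tle3, had 0.81 (SE 0.31, adjusted p = 0.366) and Maml2, a co-activator of the Notch and Rbpj complex, had 0.79 (SE 0.27, adjusted p = 0.201) in the authors' deposited table; these genes were named after their values were seen, as the remaining ones of the 3. Ncor1, the co-repressor with the highest mean (48.2), had a log2 change of 0.04, and Rbpj itself, named as the pathway's DNA-binding protein, had -0.25 (SE 0.24).

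**Figure D4:**
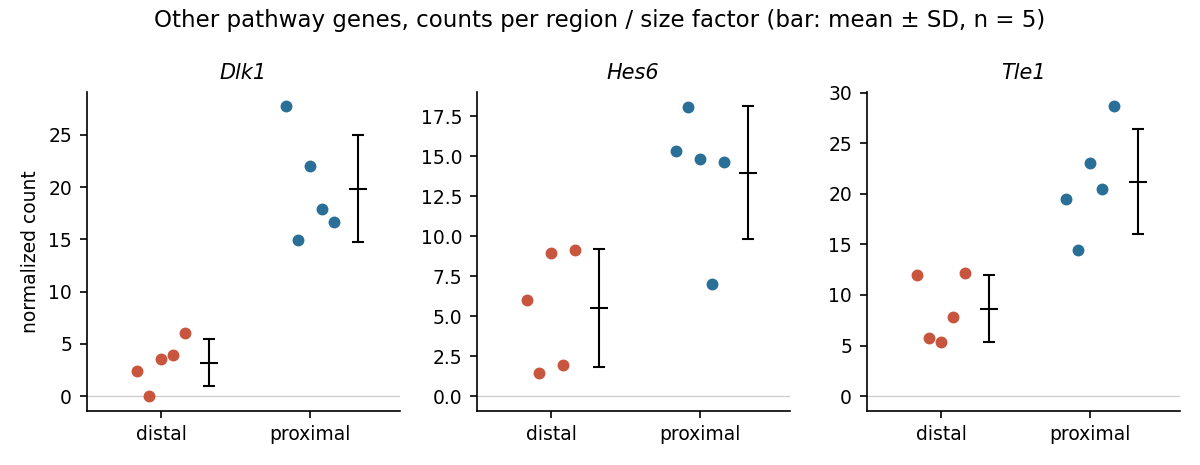
Normalized counts (vertical axis, count divided by the region's size factor) of Dlk1, Hes6 and Tle1 in each distal and proximal region, with bars for the mean ± SD over 5 regions. The sides do not overlap for Dlk1 and Tle1 and overlap for Hes6 through proximal region 4.

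Among the further targets 0 of 4 genes in the table were called. Hes6, a Hes family member known to oppose Hes1 and to mark differentiating precursors of nerve and muscle, had 5, 1, 5, 1 and 3 counts in distal regions 1 to 5 and 37, 40, 29, 11 and 22 in proximal regions 1 to 5. The normalized means were 5.50 ± 3.69 and 14.0 ± 4.13 (SD, n = 5 regions each), and 1 proximal region lay within the distal range. The log2 change of Hes6 was -1.45 (SE 0.48, p = 0.00288, adjusted p = 0.190 in the authors' deposited table). Per depth its proximal count was 2.81 times the distal one (exact interval from 1.65 to 5.16). Of 8 inhibitors and turnover genes 0 were called, and Dtx3, with the smallest p and the highest mean of them (67.8), had -0.40 (SE 0.18, adjusted p = 0.656 in the authors' deposited table).

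**Figure D5:**
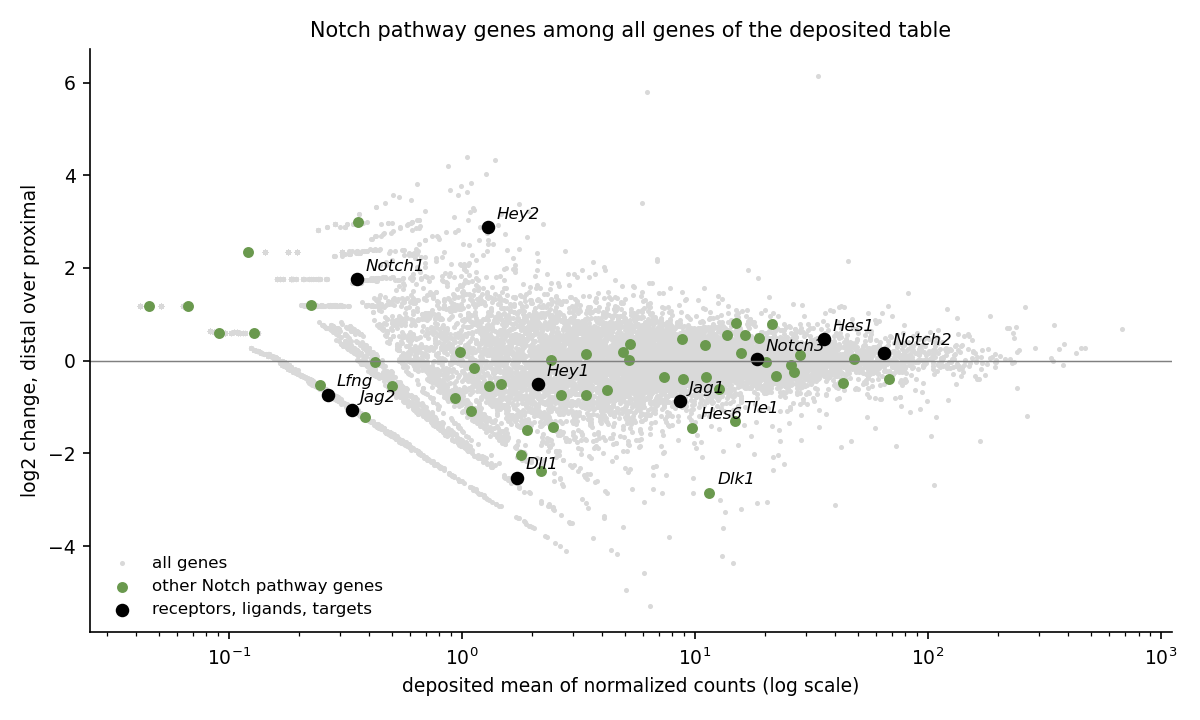
Deposited log2 change, distal over proximal (vertical axis), against the deposited mean of normalized counts (horizontal log axis) for all 13916 genes in grey, the 10 Notch genes in black and 52 other pathway genes in green. Notch2, Hes1 and Notch3 lie near 0 at high means, Dlk1 lies apart at -2.85, and the bands at low means are genes with few counts.

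The labelled cell type was checked against its markers. All 8 limb mesenchyme markers were in the table, with Prrx1 highest (mean 159.0), and 4 were called in the authors' deposited table, Msx1 and Lhx2 higher in distal and Pdgfra and Tbx5 higher in proximal. Of 7 cartilage markers 6 were in the table and Sox9 was called, higher in distal (mean 682.0). Surface ectoderm (4 of 8 in the table, highest Epcam), blood (1 of 6, Ptprc) and neural crest (6 of 7, highest Ngfr at a mean of 2.89) had 0 called. The part of any of these cells in the Notch gene values was not tested.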

How the data were processed

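The deposited table holds the authors' comparison of 5 distal with 5 proximal regions. Per the file headers it is a DESeq2 results table: the mean is a signal in normalized counts, averaged by the authors over all regions, and the log2 change, the statistic (a score), the p-value and the adjusted p-value were also deposited by the authors. Per the submitters' processing notes the builds were mm10 and GRCm38. The aligner, the counting and the treatment of PCR copies are not given in the sources used here, so intervals and floors cover counting error only.

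The 10 size factors were read from the lowest means. Counts per region were then found as the whole numbers whose mean, and whose log2 change when refitted by a negative binomial model with fitted means of 0.5 or more, matched the deposited values. This gave counts for 6273 of 6273 genes with a mean up to 2.6 (refitted log2 change within 4.71e-07, of which 370 genes needed that refit) and, by search, for Jag1, Notch3, Hes6, Dlk1 and Tle1. Wrong sets expected to match by chance were at most 0.103 per gene, for Notch3. The recovery for means up to 2.6 was tested on simulated data, where 181 of 181 genes came out right. The search used for Jag1, Notch3, Hes6, Dlk1 and Tle1 was not tested on simulated data. No other gene with a mean above 2.6 was searched. Of these, Hes6, Dlk1 and Tle1 are named for a call or the smallest p of their role, so they were not picked without regard to their values. For other genes the size factors, mean and log2 change together gave counts per side, with errors of up to 5.97% in 5 genes with counts.

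Calls are deposited adjusted p under 0.05, and no p was adjusted over the gene list. The members and lists were chosen with earlier results of these data known. Other pathway genes are named if called, or if they had the smallest p or the highest mean of their role; markers if called or highest. Notch4, Dll3, Dll4, Dlk2, Rbpj, Tle3, Maml2, Aph1c, Hes5 and Dtx1 lie outside that rule and were named after their values were seen. So were Cspg4 and the markers listed for their counts per region or for having no row. One marker gene is not reported here. Alternatives were other thresholds, adjustments and centrings, pooled counts with a pseudocount of 0.5, and leaving out each region. Positions are from GENCODE M21, and near-identical copies, searched with BLAST 2.17.0 over the last 300 bases at 95% identity over 200 bases, were found for none of the 10 genes. Python 3.11.15, numpy 2.4.6 and scipy 1.17.1 were used.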

Additional observations from a re-analysis of the deposited data

Results flagged for a closer look

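Lfng stood apart in one proximal region. Its normalized counts in proximal regions 1 to 5 were 0.414, 2.26, 0, 0 and 0, and the gap between the highest region and the next was 0.817 of the whole range, above the critical value of 0.710 for 5 values. Of its 6 counts 5 were in that region. Chance flags about 1 in 20 groups of normally distributed values, a rate that does not hold for so few counts with ties at 0. There were 10 sides tested, those with more than 3 counts.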

How the results depend on the processing

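The count of 0 called Notch genes held with adjusted p under 0.01 or 0.1, with adjustment over this table or over the genes whose mean reached 10, and after subtracting the median log2 change, and was 2 at an unadjusted p under 0.05. The count of 1 called other pathway gene was 2 at an adjusted p under 0.1, 2 with adjustment over the genes whose mean reached 10, 2 with centring, and 8 unadjusted; the cause was not tested. Of 108 log2 changes of the 10 genes under alternatives, 102 kept their sign and 6 turned sign, for Notch3 and Lfng. The turned value of Lfng had 1 proximal and 0 distal counts left, so its sign shows no direction of the counts. Notch3 was -0.037 after centring. Leaving out 1 region at a time gave from -0.17 to 0.18 for Notch3, with -0.06 without distal region 1, -0.08 without proximal region 3 and -0.005 without proximal region 4, and from -1.05 to 0.99 for Lfng. Pooled counts gave -2.19 for Jag2 and -1.98 for Lfng, beside the deposited -1.06 and -0.73. Leaving out 1 region gave from -0.74 to -0.13 for Hey1 and from -1.36 to -0.64 for Jag2. For Jag1 the range was -1.16 to -0.67, with unadjusted p from 0.0313 to 0.149. Notch2 and Hes1 had no counts per region and could not be refitted. No paired analysis was possible because the regions of the 2 sides carry no number that the table keeps. Depth limits Notch1, Jag2, Lfng and Hey2 most, each with fewer than 10 counts in all.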
